A study of Mus musculus with 2 samples.

Results

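The 34 synaptic and mature neuron genes followed here were matched by symbol among the 53717 features of the deposited gene lists, and each had at least 1 UMI in both libraries. They were read in excitatory, Cajal-Retzius and immature neuron-like cells, and in glia with and without a UMI (unique molecular identifier, 1 counted RNA molecule) of the vector's GFP. Single-cell RNA came from hippocampus of 5xFAD mice, a strain that carries human transgenes with familial Alzheimer mutations under a Thy1 cassette and forms amyloid plaques. In the NeuroD1 group the mice received AAV9-GFAP::NeuroD1-P2A-GFP, an AAV vector in which a GFAP promoter, active mainly in astrocytes, drives the proneural factor NeuroD1 together with GFP. In the GFP group they received AAV9-GFAP::GFP, the same kind of vector with GFP alone. Both groups were 5xFAD, with a labelled time of 6 months, and 3 mice per group are stated, sampled 3 weeks after the vector was given. Each group was 1 library, so the mice of a group cannot be told apart and no test between groups was possible. Every interval is a 95% interval that covers counting error only.

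Neurons release transmitter when synaptic vesicles, loaded by transporters such as those for glutamate (Slc17a6, Slc17a7) and GABA (Slc32a1), fuse with the membrane through a complex of Vamp2, Stx1a and Snap25. Synaptotagmins sense calcium, complexins (Cplx1, Cplx2) clamp and promote fusion, and synapsins, Rab3 proteins and Bsn organise the vesicle pool. On the receiving side Dlg4 anchors NMDA receptor subunits such as Grin2a and Grin2b, and Camk2a, Camk2b and Nrgn act in calcium signalling. Gap43 belongs to growing axons, Nefl and Nefm to mature ones, and Rbfox3 encodes the nuclear marker NeuN.

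Kept cells numbered 12786 in the NeuroD1-vector library and 11079 in the GFP-vector library, with medians of 2556 and 1168 UMIs per cell. The deposited matrices held 51236521 UMIs in the NeuroD1-vector library and 17504950 in the GFP-vector library. Ttr, a choroid plexus transcript, made up 12.96% of the UMIs of the NeuroD1-vector library and 2.24% of those of the GFP-vector library, and haemoglobin genes 0.461% and 0.00108%. A total of 99 barcode sequences occurred in both libraries. ND1, the feature listed for the vector's NeuroD1, was at 0 UMIs throughout, so it gave no measure of vector NeuroD1, and GFP had 627 UMIs in the NeuroD1-vector library and 25290 in the GFP-vector library. Among astrocyte-like cells, 6.11% had a GFP UMI in the NeuroD1-vector library and 62.7% in the GFP-vector library. Among microglia-like cells, in which a GFAP promoter is not active, 0.0794% and 7.27% had one, so a share of that size in the GFP-vector library is read as background.

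Promoter sequences of 23 of the 34 members were searched (RefSeq, GRCm38.p6), each of 300 bases, 250 before and 50 after the listed start. Members on a chromosome set aside before the search are not among the 23, while the counts over all genes had no such limit. Shown are the glutamate transporters, which separated the neuron classes, and Cplx2 and Chgb. Both were among the members with higher CPM in GFP-positive astrocyte-like cells of the NeuroD1-vector library. Capitals mark the E-box CAGATG or CAGCTG, hexamers of the kind that basic helix-loop-helix factors such as NeuroD1 bind. The windows are chr7:45163671-45163970 for Slc17a7, chr7:51624387-51624686 for the second listed start of Slc17a6, chr13:54302306-54302605 for Cplx2 and chr2:132781392-132781691 for Chgb, all on the plus strand.

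Slc17a7: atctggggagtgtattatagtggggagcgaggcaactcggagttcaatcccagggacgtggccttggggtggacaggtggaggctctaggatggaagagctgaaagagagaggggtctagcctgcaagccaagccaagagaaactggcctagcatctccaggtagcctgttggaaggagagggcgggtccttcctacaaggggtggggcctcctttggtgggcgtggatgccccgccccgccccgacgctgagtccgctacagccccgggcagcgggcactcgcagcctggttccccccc
Slc17a6: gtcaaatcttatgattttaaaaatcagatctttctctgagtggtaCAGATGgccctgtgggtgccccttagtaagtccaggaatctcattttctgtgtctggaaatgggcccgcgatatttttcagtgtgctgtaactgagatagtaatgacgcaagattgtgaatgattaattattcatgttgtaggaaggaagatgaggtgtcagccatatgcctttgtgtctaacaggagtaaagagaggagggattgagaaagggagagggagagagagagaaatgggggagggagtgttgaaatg
Cplx2: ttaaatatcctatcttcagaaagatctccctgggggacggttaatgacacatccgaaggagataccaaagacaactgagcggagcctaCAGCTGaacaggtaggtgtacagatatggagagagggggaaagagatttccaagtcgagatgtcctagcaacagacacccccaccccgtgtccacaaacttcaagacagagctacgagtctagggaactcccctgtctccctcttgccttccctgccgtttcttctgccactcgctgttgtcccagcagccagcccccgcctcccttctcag
Chgb: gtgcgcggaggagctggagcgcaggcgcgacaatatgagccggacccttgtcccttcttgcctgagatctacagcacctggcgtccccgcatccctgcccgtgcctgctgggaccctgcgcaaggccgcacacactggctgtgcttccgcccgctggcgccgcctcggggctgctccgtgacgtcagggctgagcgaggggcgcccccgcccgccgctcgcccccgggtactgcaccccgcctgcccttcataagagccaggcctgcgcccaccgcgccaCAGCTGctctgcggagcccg

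Searched on both strands, CAGCTG lay in the window of 9 of the 23 members (39.1%), against 18.3% of 27025 genes. Those members were Bsn, Chgb, Cplx1, Cplx2, Rab3a, Rab3c, Snhg11, Stx1a and Syt1. CAGATG lay in 4 of the 23 (17.4%), namely Gad2, Nrgn, Slc17a6 and Syn2, against 19.2% of all genes. Slc17a6 and Syn2 each have 2 listed starts, and both hold the match at the second and neither hexamer at the first. Syp, which also had higher CPM in GFP-positive astrocyte-like cells of the NeuroD1-vector library, held neither hexamer in its window. A match is a string of letters and no measured binding site.

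Excitatory neuron-like cells numbered 7 in the NeuroD1-vector library and 127 in the GFP-vector library, Cajal-Retzius neuron-like cells 167 and 73, and immature neuron-like cells 118 and 36. Cajal-Retzius cells are early-born Reln-secreting neurons of the hippocampal fissure, and the immature class held markers of newborn granule neurons such as Igfbpl1, Sox11 and Neurod1. In both libraries 10 of 11 Cajal-Retzius markers were detected in the Cajal-Retzius class and 11 of 11 immature markers in the immature class. The members, the wider neuronal lists and GFP were left out of clustering, so the classes rest on other genes. In the excitatory class 16 of the 17 excitatory markers were enriched, yet no fixed marker stood among its 10 leading genes, which were Thy1, Slc17a7, Gria1, Syt1, Nell2, Camk2b, Dnm1, Scn2a, Snap25 and Grin2a. Cells with RNA of GABA neurons fell in it too, since 1 of its 7 cells in the NeuroD1-vector library and 6 of its 127 in the GFP-vector library had at least 2 UMIs of Gad1, Gad2 or Slc32a1. Glial RNA was present in all 3 classes. Oligodendrocyte markers summed to 462 CPM (counts per 1000000 UMIs of the summed class) in excitatory neuron-like cells of the NeuroD1-vector library, against 2503 CPM in the GFP-vector library, and to 601 CPM in Cajal-Retzius neuron-like cells of the NeuroD1-vector library, against 4238 CPM in the GFP-vector library. How far such RNA lowered the members' CPM was not tested.

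The members summed to 18525 CPM in the 7 excitatory neuron-like cells of the NeuroD1-vector library and 30951 CPM in the 127 of the GFP-vector library. Of these sums Thy1 alone took 501 CPM in the NeuroD1-vector library and 12255 CPM in the GFP-vector library. With median-of-ratios scaling the member sums were 9993 and 29395, so the level of the NeuroD1-vector library depends on the scaling by more than 1.5-fold. In Cajal-Retzius neuron-like cells they summed to 9426 CPM in the NeuroD1-vector library and 9802 CPM in the GFP-vector library, and in immature neuron-like cells to 2896 CPM and 2485 CPM, where median-of-ratios scaling gave 1957 and 1613. The summed level thus ran from excitatory to Cajal-Retzius to immature in both libraries, with intervals that did not overlap between classes, and median-of-ratios scaling kept that order. Among classes of at least 20 cells in the GFP-vector library, 27 members were highest in excitatory neuron-like cells and 7 in Cajal-Retzius neuron-like cells. No such share over all genes is given beside this count, so it cannot tell whether the members differ from other genes here. For Gad1, Gad2, Vamp2, Stx1a, Rab3a, Rbfox3, Cplx1, Cplx2 and Dlg4 the interval overlapped that of the next class. Of the Gad1, Gad2 and Slc32a1 UMIs of the excitatory class, 29 of 32 lay in the 6 cells with RNA of GABA neurons. With only 7 excitatory cells, the NeuroD1-vector library allows no such ranking of that class.

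**Figure D1:**
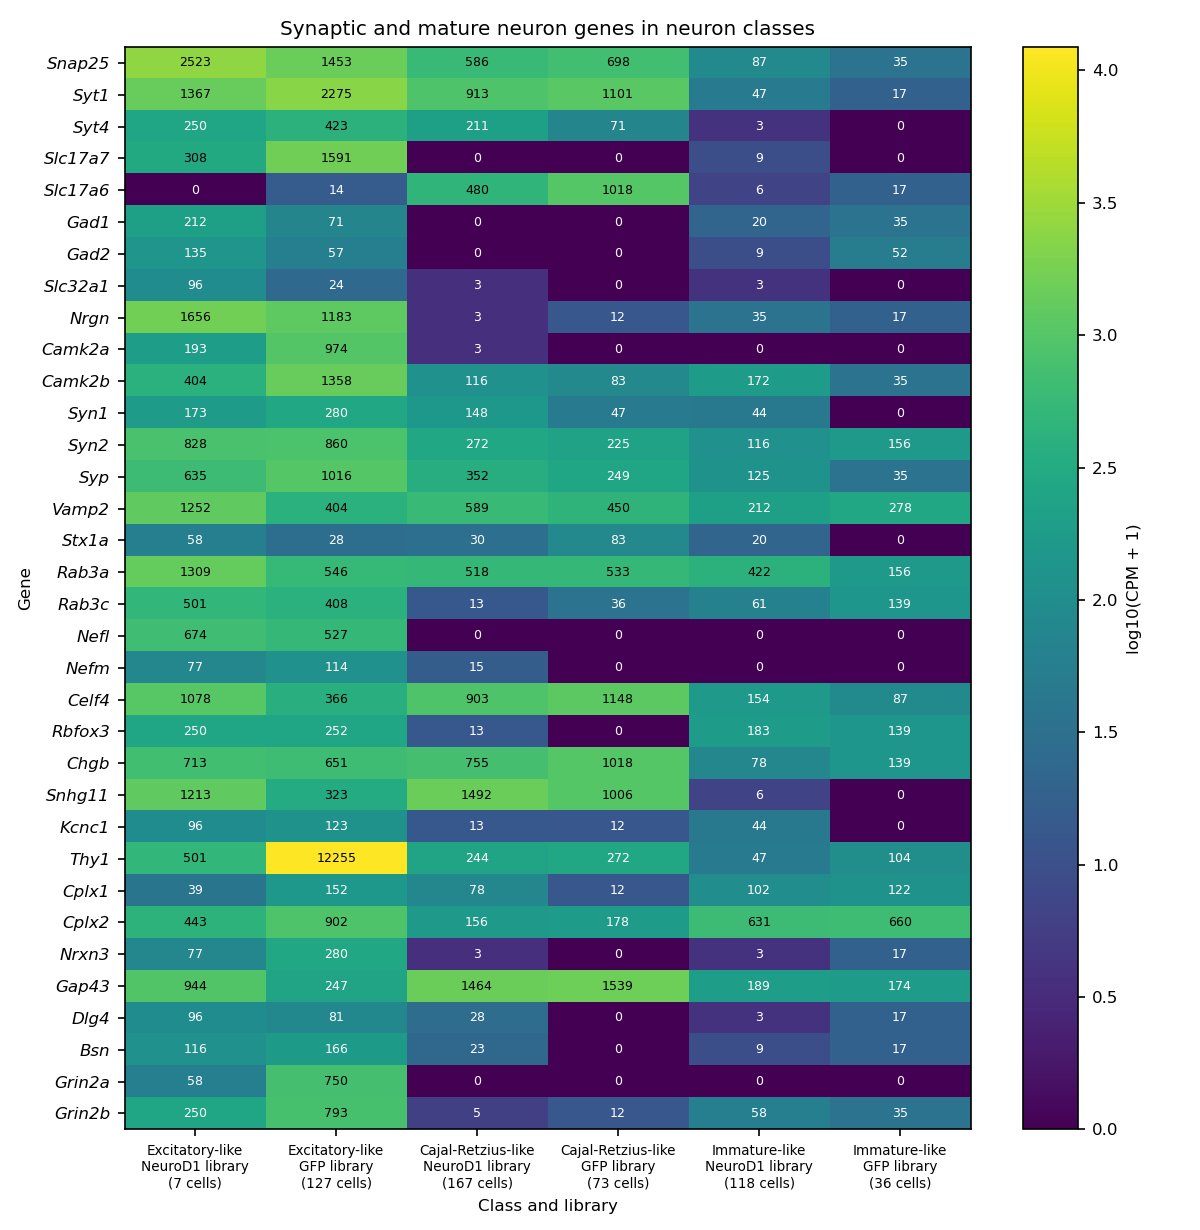
CPM of the 34 members (rows) in excitatory, Cajal-Retzius and immature neuron-like cells of the NeuroD1-vector and GFP-vector libraries (columns), coloured by log10(CPM + 1) with the CPM printed in each box. Slc17a7 and Slc17a6 alternate between the excitatory and Cajal-Retzius columns, Thy1 stands at 12255 CPM in the GFP-vector library's excitatory cells, and the immature columns keep Cplx2 at 631 and 660.4 CPM.

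The glutamate transporters divided the classes. Slc17a7, the vesicular transporter of mature cortical and hippocampal excitatory neurons, had 308 CPM in excitatory neuron-like cells of the NeuroD1-vector library and 1591 CPM in those of the GFP-vector library. In Cajal-Retzius neuron-like cells it had 0 UMIs in both libraries. Slc17a6, the transporter of many subcortical and early neurons, had 480.5 CPM in Cajal-Retzius neuron-like cells of the NeuroD1-vector library and 1018 CPM in those of the GFP-vector library. In excitatory neuron-like cells it had 0 UMIs in the NeuroD1-vector library and 3 UMIs, 14.2 CPM, in the GFP-vector library. Against the excitatory class of the GFP-vector library, Slc17a7 was at least 44.8-fold lower in Cajal-Retzius neuron-like cells, taking the floor of 3 UMIs per class sum, and Slc17a6 was higher by 71.4-fold (interval 23.6 to 353), a ratio that rests on 3 UMIs.

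A gene is called measured where both sums together hold 20 or more UMIs, and higher or lower where its CPM differed by 1.5-fold or more. In Cajal-Retzius against excitatory neuron-like cells of the GFP-vector library, 5 of 29 measured members were higher and 22 lower. Of all 3314 genes so measured, 37.8% were higher and 38.8% lower. The median log2 ratio was -2.83 over the members and 0.06 over all genes. Besides Slc17a6, the higher members were Gap43, Celf4, Snhg11 and Chgb. Gap43, a protein of axonal growth cones, had 1539 CPM in Cajal-Retzius and 247 CPM in excitatory neuron-like cells, a ratio of 6.23 (4.48 to 8.77). Celf4, a neuronal RNA-binding protein, had a ratio of 3.14 (2.30 to 4.29) and the noncoding RNA Snhg11 one of 3.12 (2.24 to 4.35). Chgb, a protein of dense-core secretory granules, had 1018 CPM in Cajal-Retzius and 651 CPM in excitatory neuron-like cells.

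The postsynaptic and calcium-signalling members lay on the other side. Camk2a had 0 CPM in Cajal-Retzius neuron-like cells of the GFP-vector library, against 974 CPM in excitatory ones, and was at least 27.4-fold lower. Grin2a had 0 against 750.5 CPM and was at least 21.1-fold lower. Nrgn had 1 UMI, 11.8 CPM, in the Cajal-Retzius class and 1183 CPM in the excitatory class, and Grin2b likewise had 1 UMI against 793 CPM. The neurofilament gene Nefl had 0 against 527 CPM. Vamp2 and Rab3a, of the general vesicle machinery, were within 1.5-fold: Vamp2 had 450 CPM in Cajal-Retzius and 404 CPM in excitatory neuron-like cells, a ratio of 1.11 (0.74 to 1.65), and Rab3a a ratio of 0.98 (0.68 to 1.39). Snap25 at 698 CPM and Syt1 at 1101 CPM in the Cajal-Retzius class were both at a ratio of 0.48 to the excitatory class. In the wider lists of the same comparison, 20 of 24 measured vesicle release genes, 20 of 21 postsynaptic genes and 18 of 20 excitability genes were lower in Cajal-Retzius neuron-like cells. Of 15 measured cytoskeleton genes only 3 were lower and 3 higher, among them Stmn2, a regulator of axonal microtubules, with 841 CPM in Cajal-Retzius and 375 CPM in excitatory neuron-like cells.

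Immature neuron-like cells of the GFP-vector library had 0 of 28 measured members higher than the excitatory class and 24 lower, against 32.3% higher and 48.6% lower of all genes. The 4 members within 1.5-fold were Cplx2, Cplx1, Gap43 and Vamp2. Set against Cajal-Retzius neuron-like cells, 5 of 21 members were higher and 13 lower in the NeuroD1-vector library, where 26.7% and 26.9% of all genes were, and 1 of 13 was higher and 11 lower in the GFP-vector library, where 24% and 33.1% of all genes were. Cplx2 was the member higher in both libraries: it had 631 CPM in immature and 156 CPM in Cajal-Retzius neuron-like cells of the NeuroD1-vector library, and 660.4 CPM and 178 CPM in the GFP-vector library. Rbfox3 had 183 CPM in immature and 12.6 CPM in Cajal-Retzius neuron-like cells of the NeuroD1-vector library, and 139 CPM and 0 CPM in the GFP-vector library. Snap25 was at 87.2 CPM in the immature class of the NeuroD1-vector library and 34.8 CPM in that of the GFP-vector library, below its Cajal-Retzius level in both. In the immature class the cells with a UMI of a cycling gene (28 in the NeuroD1-vector and 8 in the GFP-vector library) had summed member levels of 1328 CPM in the NeuroD1-vector library and 1295 CPM in the GFP-vector library, while those without had 3678 CPM and 3050.1 CPM.

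Thy1, a surface protein of mature projection neurons whose regulatory cassette also drives the 5xFAD transgenes, stood out in the excitatory class. Its level was 501 CPM in the NeuroD1-vector library (7 cells, 1 to 8 UMIs each, median 3) and 12255 CPM in the GFP-vector library (127 cells, 0 to 203 UMIs each, median 11). App, added after its values were seen, had 1194 CPM in the NeuroD1-vector library's excitatory cells and 4764 CPM in those of the GFP-vector library. In Cajal-Retzius neuron-like cells Thy1 was close between the libraries, at 244 CPM in the NeuroD1-vector library and 272 CPM in the GFP-vector library, and App had 740 CPM and 1018 CPM. Whether transgene reads were counted as Thy1 or App was not tested. Without Thy1, the excitatory class of the GFP-vector library was still led by Syt1, Slc17a7, Snap25 and Camk2b, at 2275, 1591, 1453 and 1358 CPM.

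Between the libraries, the members' level in Cajal-Retzius neuron-like cells differed little in sum: the ratio of the NeuroD1-vector to the GFP-vector library was 0.96 (0.89 to 1.04). Of 17 measured members 3 were higher and 1 lower in the NeuroD1-vector library, where 25.6% and 17.1% of all genes were, so the members' share was no larger than the background. The higher ones were Syt4, with 211 CPM in the NeuroD1-vector library and 71.0 CPM in the GFP-vector library, Syn1, with 148 and 47.4 CPM, and Cplx1, with 31 UMIs in the NeuroD1-vector library and 1 UMI in the GFP-vector library, a ratio of 6.59 (1.10 to 268). The lower one was Slc17a6, with 480.5 CPM in the NeuroD1-vector library and 1018 CPM in the GFP-vector library, a ratio of 0.47 (0.36 to 0.62). Slc17a6 UMIs lay in 97 of 167 cells (58.1%) of the NeuroD1-vector library and 39 of 73 (53.4%) of the GFP-vector library. After thinning each cell to 500 UMIs, 19.2% of cells in the NeuroD1-vector library and 26.0% in the GFP-vector library had one. Snhg11 had 1492 CPM in the NeuroD1-vector library and 1006 CPM in the GFP-vector library, a ratio of 1.48 (1.18 to 1.88), and Gap43 one of 0.95 (0.79 to 1.16). RNA of other cells differed between these groups: besides the oligodendrocyte markers above, choroid plexus markers, 7 of 8 detected in the NeuroD1-vector library and 2 of 8 in the GFP-vector library, summed to 18547 CPM and 1906 CPM. Their part in the members' ratios was not tested.

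In immature neuron-like cells the summed ratio of the NeuroD1-vector to the GFP-vector library was 1.17 (0.98 to 1.40). Of 15 measured members 6 were higher and 3 lower, against 33.2% and 15.1% of all genes, and most intervals held 1. Those that did not were the vesicle GTPase Rab3a, with 422 CPM in the NeuroD1-vector library and 156 CPM in the GFP-vector library, a ratio of 2.70 (1.38 to 6.01), and Camk2b, with 172 and 34.8 CPM, a ratio of 4.93 (1.31 to 41.7) that rests on 2 UMIs in the GFP-vector library. Cplx2 had a ratio of 0.96 (0.67 to 1.39).

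**Figure D2:**
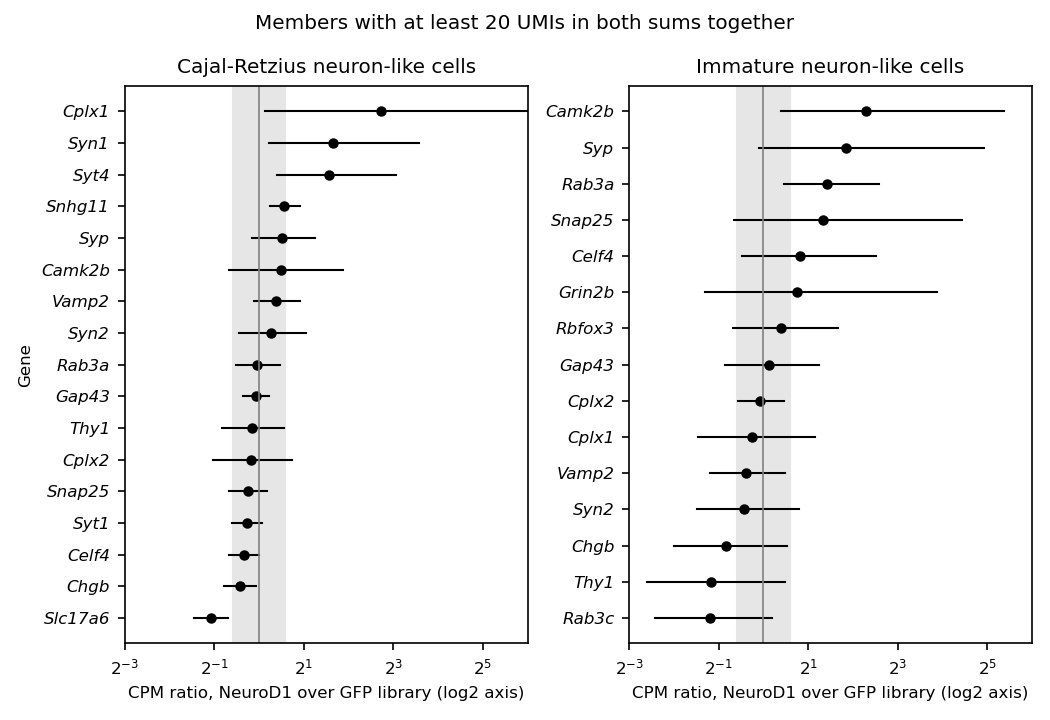
CPM ratio of the NeuroD1-vector over the GFP-vector library (log2 axis) for each measured member in Cajal-Retzius (left) and immature neuron-like cells (right). Points are ratios, lines exact 95% counting intervals (1 reaches past the axis), and the grey band spans 1.5-fold either way. Slc17a6 is the member below the band in Cajal-Retzius neuron-like cells, and most intervals in immature neuron-like cells cross 1.

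Astrocyte-like cells, the cells in which a GFAP promoter is active, carried the members at a low level, 581 CPM in sum in the NeuroD1-vector library and 508 CPM in the GFP-vector library. With every cell thinned to 500 UMIs, 23.0% of astrocyte-like cells in the NeuroD1-vector library and 22.0% in the GFP-vector library had a member UMI. Without thinning the shares were 64.2% and 42.7%, and in microglia-like cells, which form no synapses, the thinned shares were 4.53% in the NeuroD1-vector library and 13.5% in the GFP-vector library. Microglia-like cells are no zero for the whole list, since Vamp2, found on vesicles of many cell types, had 40.6 CPM there in the NeuroD1-vector library and 45.1 CPM in the GFP-vector library. Vamp2 took 179 CPM of the astrocyte-like sum in the NeuroD1-vector library and 148 CPM in the GFP-vector library. Between the libraries 4 of 26 measured members were higher and 7 lower in the NeuroD1-vector library, against 10.4% and 24.9% of all genes. Cplx2, which clamps and promotes vesicle fusion, had 99.3 CPM in the NeuroD1-vector library and 42.7 CPM in the GFP-vector library, a ratio of 2.33 (1.94 to 2.82). Slc17a7 had 13 UMIs in each library, 1.10 CPM in the NeuroD1-vector library and 4.40 CPM in the GFP-vector library. Snap25 had 10.1 and 9.14 CPM, a ratio of 1.11 (0.72 to 1.75).

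Split by GFP, the astrocyte-like cells of the NeuroD1-vector library differed in part of the list. The 225 cells with a GFP UMI had a summed member level of 906 CPM and the 3455 without had 543 CPM, a ratio of 1.67 (1.56 to 1.78). Of 22 measured members 9 were higher and 2 lower in GFP-positive cells, where 11.9% and 15.4% of all genes were. The median log2 ratio was 0.48 over the members and 0.05 over all genes. In the GFP-vector library 1358 cells had a GFP UMI and 808 had none, with summed member levels of 495 and 534 CPM. There, 1 of 12 measured members was higher and 1 lower in GFP-positive cells, against 9.44% and 8.86% of all genes. Cells with a GFP UMI were deeper: the medians in the NeuroD1-vector library were 5221 UMIs with GFP and 2351 without, and in the GFP-vector library 1224.5 and 1007.

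Cplx2 had the most UMIs of the members in GFP-positive cells of the NeuroD1-vector library. There it had 325 UMIs, 262 CPM, in GFP-positive cells and 852 UMIs, 80.3 CPM, in GFP-negative cells, a ratio of 3.26 (2.86 to 3.71). In the GFP-vector library it had 43.8 CPM in GFP-positive and 40.5 CPM in GFP-negative cells, a ratio of 1.08 (0.74 to 1.61). The ratio in the NeuroD1-vector library was 3.01 times that in the GFP-vector library (2.03 to 4.47). Cplx2 UMIs lay in 106 of 225 GFP-positive cells (47.1%) of the NeuroD1-vector library, at most 17 in a cell, and in 551 of 3455 GFP-negative cells (15.9%). With each cell thinned to 500 UMIs the shares were 12.9% in GFP-positive cells (8.80 to 18.0) and 3.50% in GFP-negative cells (2.91 to 4.17). Between GFP-positive cells alone, Cplx2 had a ratio of 5.98 (4.70 to 7.69) of the NeuroD1-vector to the GFP-vector library, and 6 of 13 measured members were higher and 1 lower, against 12.7% and 27.3% of all genes. These GFP-positive groups differed in depth, with medians of 5221 and 1224.5 UMIs, and in clusters. A cluster led by Thrsp held 175 of 225 cells in the NeuroD1-vector library and 115 of 1358 in the GFP-vector library. The part of depth and cluster in the ratio was not tested. Between GFP-negative cells Cplx2 had a ratio of 1.98 (1.45 to 2.79), with 5 of 24 members higher and 9 lower, against 15.7% and 26.3% of all genes.

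Other vesicle members went the same way in the NeuroD1-vector library. Syn2, a synapsin that tethers vesicles, had 86.3 CPM in GFP-positive and 37.6 CPM in GFP-negative cells, a ratio of 2.29 (1.84 to 2.85), and a ratio of 0.84 (0.54 to 1.31) in the GFP-vector library. Syp, a vesicle membrane protein, had 45.2 and 22.2 CPM, a ratio of 2.04 whose interval lay above 1, with a ratio of 1.36 (0.73 to 2.65) in the GFP-vector library. The ratio in the NeuroD1-vector library was 2.74 times that in the GFP-vector library (1.71 to 4.41) for Syn2 and 1.501 times (0.77 to 2.91) for Syp. With 1 library per group, such intervals are no test between the groups. Timp4, an astrocyte gene on the opposite strand within Syn2, had 256 CPM in GFP-positive and 608 CPM in GFP-negative cells of the NeuroD1-vector library. That is the opposite direction to Syn2. Gm17482 overlaps Syn2 on the same strand, and whether reads of either gene were counted as Syn2 was not tested.

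Granule and channel genes followed. Chgb had 33 UMIs, 26.6 CPM, in GFP-positive cells of the NeuroD1-vector library and 7.35 CPM in GFP-negative cells, a ratio of 3.62 (2.33 to 5.50), against 0.80 (0.42 to 1.57) in the GFP-vector library. Its UMIs were uneven over cells, and 10 cells held 22 of the 33. With cells of the NeuroD1-vector library thinned, Chgb lay in 0 of 225 GFP-positive cells (interval 0 to 1.63%). It lay in 9 of 3455 GFP-negative cells (0.119 to 0.494%). These intervals overlapped, so the higher Chgb level was not seen in thinned cells, where few of its UMIs were left. Kcnc1, a fast potassium channel, had 17 UMIs, 13.7 CPM, in GFP-positive and 3.39 CPM in GFP-negative cells, a ratio of 4.04 (2.13 to 7.38). After thinning, Kcnc1 lay in 1 GFP-positive and 3 GFP-negative cells. Thy1 had 135 and 78.6 CPM, a ratio of 1.72 (1.45 to 2.04), and a ratio of 1.01 (0.80 to 1.29) in the GFP-vector library. Its thinned shares in the NeuroD1-vector library were 5.78% of GFP-positive cells (3.11 to 9.68) and 4.17% of GFP-negative cells (3.53 to 4.89). Rbfox3, Gap43 and Nefl were also higher, on 8, 11 and 6 UMIs in GFP-positive cells, the last with an interval of 0.58 to 4.18. The lower members were Gad1, on 1 UMI in GFP-positive cells, and Celf4, with a ratio of 0.53 (0.21 to 1.14).

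Members of the fusion core and the receptor side lay near a ratio of 1. Snap25 had 10.5 CPM in GFP-positive and 10.1 CPM in GFP-negative cells of the NeuroD1-vector library, a ratio of 1.04 (0.54 to 1.85). Vamp2 had a ratio of 1.08 (0.94 to 1.24), Rab3a 0.90 (0.64 to 1.23), Nrgn 1.06 (0.68 to 1.60), Dlg4 0.99 (0.48 to 1.85) and Grin2b 0.92 (0.43 to 1.77). Slc17a7, Slc17a6 and Slc32a1 were too low to be measured in this split. In the GFP-vector library Snap25 was the lower member, with 9 UMIs, 4.64 CPM, in GFP-positive and 18 UMIs, 17.8 CPM, in GFP-negative cells. Its ratio was 1.04 in the NeuroD1-vector library and 0.26 in the GFP-vector library, 3.98 times apart (1.48 to 10.7). Set against the NeuroD1-vector library, the GFP-vector library was lower in GFP-positive cells and higher in GFP-negative cells, on 9 and 18 UMIs.

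**Figure D3:**
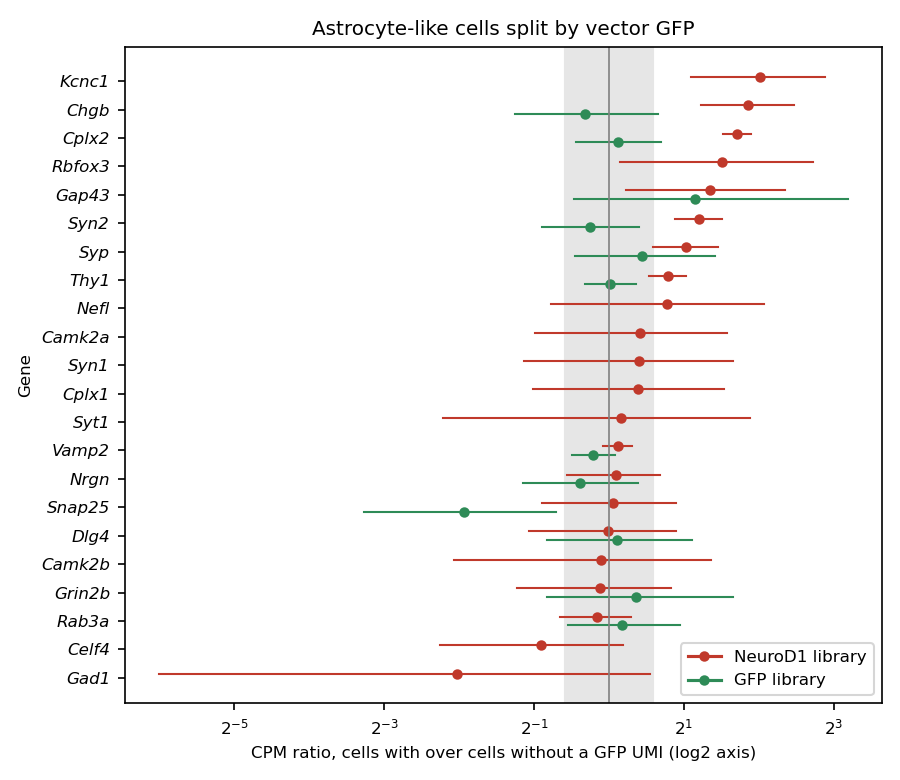
CPM ratio of astrocyte-like cells with over those without a GFP UMI (log2 axis), for the members measured in the NeuroD1-vector library (upper line of each pair) and, where measured, in the GFP-vector library (lower line). Points are ratios, lines 95% counting intervals and the grey band 1.5-fold either way. Kcnc1, Chgb, Cplx2, Syn2, Syp and Thy1 lie right of 1 in the NeuroD1-vector library, while Snap25, Vamp2 and Rab3a lie near 1.

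Levels were also read by the number of GFP UMIs in a cell. In the NeuroD1-vector library Cplx2 had 80.3 CPM in cells with 0 GFP UMIs, 226 CPM with 1, 303 CPM with 2 to 4 and 285 CPM with 5 or more (3455, 128, 74 and 23 cells). In the GFP-vector library it had 40.5, 61.3, 34.7 and 42.2 CPM in the same bins (808, 275, 385 and 698 cells). Chgb in the NeuroD1-vector library had 7.35 CPM with 0 GFP UMIs, 13.004 CPM with 1, 35.9 CPM with 2 to 4 and 50.4 CPM with 5 or more, the last 3 on 8, 16 and 9 UMIs. In the GFP-vector library the same bins had 16.8, 30.6, 12.2 and 8.26 CPM, on 17, 11, 6 and 9 UMIs. With 1 GFP UMI, Chgb was thus lower in the NeuroD1-vector library, with intervals that overlapped. Among the GFP-positive bins of the NeuroD1-vector library, the Cplx2 intervals overlapped one another. Over the same bins Syn2 had 81.3, 101 and 67.1 CPM and Syp 52.0, 33.6 and 50.4 CPM, without a steady rise. Kcnc1 had 9.75, 13.4 and 28.0 CPM there, on 6, 6 and 5 UMIs.

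**Figure D4:**
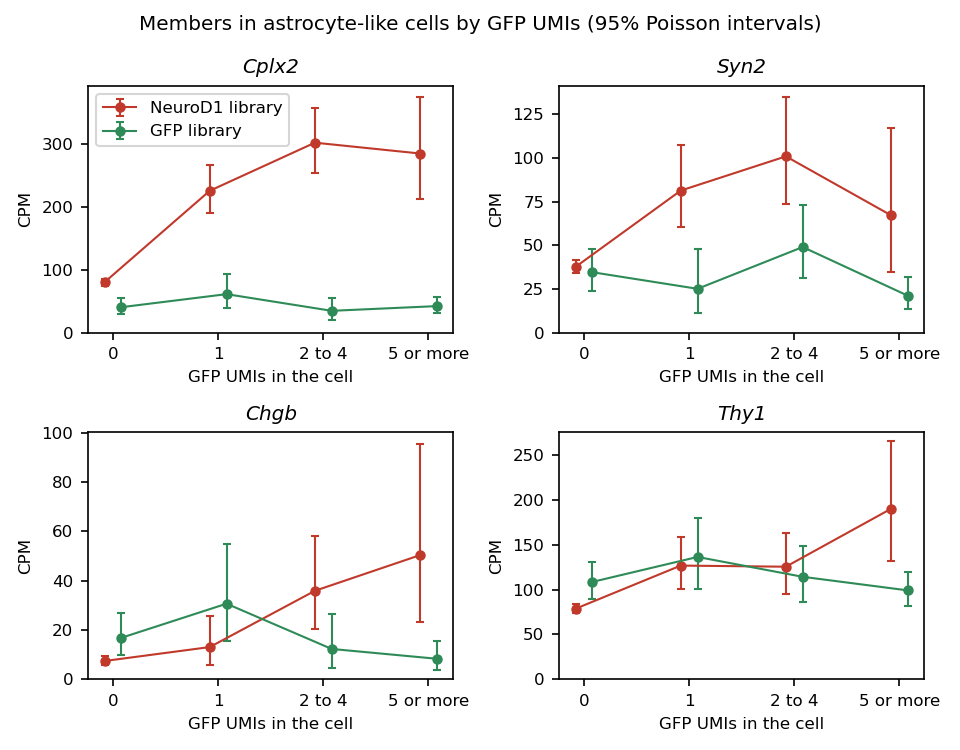
CPM of Cplx2, Syn2, Chgb and Thy1 in astrocyte-like cells binned by their GFP UMIs (0, 1, 2 to 4, 5 or more), in the NeuroD1-vector and the GFP-vector library, with exact 95% Poisson intervals. Cplx2 is above 220 CPM in each GFP-positive bin of the NeuroD1-vector library and below 65 CPM in every bin of the GFP-vector library.

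Most GFP-positive astrocyte-like cells of the NeuroD1-vector library, 175 of 225, lay in a cluster led by Thrsp, Rnase1, Aldh1a1 and Gfap, where 1135 cells had no GFP UMI. Within that cluster Cplx2 had 279 CPM in GFP-positive and 103 CPM in GFP-negative cells, a ratio of 2.70 (2.34 to 3.10). There 10 of 21 measured members were higher and 2 lower, against 12.7% and 11.9% of all genes. In cells with at most 2 UMIs of the fixed immature and excitatory neuron markers, 7 of 21 members were higher and 3 lower. Of all genes 12.3% and 17.6% were, and Cplx2 had a ratio of 3.51 (3.01 to 4.07). The same choice of cells in the GFP-vector library left 1 of 12 members higher and 1 lower, against 9.62% and 8.79% of all genes. Astrocyte markers summed to 28025 CPM in GFP-positive and 36533 CPM in GFP-negative cells of the NeuroD1-vector library. Immature neuron markers, of which 10 of 11 were detected in GFP-positive cells, summed to 179 CPM in GFP-positive and 66.1 CPM in GFP-negative cells of the NeuroD1-vector library, and to 42.3 CPM in GFP-positive and 48.4 CPM in GFP-negative cells of the GFP-vector library. Gfap itself had 5114 CPM in GFP-positive and 1498 CPM in GFP-negative cells of the NeuroD1-vector library, and 2751 and 2619 CPM in the GFP-vector library. Excitatory markers, 12 of 17 detected, summed to 127 CPM in GFP-positive and 109.7 CPM in GFP-negative cells. The part of these marker levels and of depth in the split was not tested. The feature of the mouse gene Neurod1, for which reads of the vector were not told apart, had 6 UMIs in the 225 GFP-positive cells and 13 in the 3455 GFP-negative cells.

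Among the wider lists in the same split of the NeuroD1-vector library, 4 of 14 measured cytoskeleton genes were higher and 1 lower, 5 of 11 excitability genes higher and 2 lower, 4 of 20 vesicle release genes higher and 6 lower, 4 of 19 postsynaptic genes higher and 3 lower, 2 of 7 dense-core secretion genes higher and 1 lower, and 1 of 5 neuronal RNA-binding genes higher and 0 lower, against 11.9% and 15.4% of all genes. Tubb3, a neuronal tubulin, had 16.9 CPM in GFP-positive and 2.92 CPM in GFP-negative cells, a ratio of 5.80 (3.17 to 10.4). Cadps, which primes dense-core granules, had a ratio of 3.27 (2.37 to 4.47). Pclo, a large active-zone scaffold, went the other way with a ratio of 0.41 (0.13 to 0.98), as did the potassium channel Kcnd2 with 0.25 (0.09 to 0.56).

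Oligodendrocyte-like cells had a summed member level of 450 CPM in the NeuroD1-vector library and 349.8 CPM in the GFP-vector library, a ratio of 1.29 (1.21 to 1.37). In these cells the vesicle genes Vamp2, Rab3a and Syp made up most of the members' UMIs. Vamp2 had 252 CPM in the NeuroD1-vector library and 165 CPM in the GFP-vector library, a ratio of 1.53 (1.39 to 1.68), Rab3a 126 and 86.8 CPM, and Syp 38.5 and 31.8 CPM. Of 14 measured members 2 were higher and 6 lower in the NeuroD1-vector library, against 12.6% and 15.2% of all genes. The median log2 ratio over the members was -0.36, opposite in sign to the log of the summed ratio, and 0.50 with cells thinned to 500 UMIs. Thy1, among the lower, had 1.05 CPM in the NeuroD1-vector library and 9.68 CPM in the GFP-vector library. Oligodendrocyte precursor-like cells had Gap43 at 229 CPM in the NeuroD1-vector library and 139.8 CPM in the GFP-vector library, Syn2 at 101 and 119.8 CPM, and Chgb at 86.6 and 119.8 CPM. Only 5 members were measured between the libraries there, 2 of them higher and 0 lower, against 32.4% and 16.8% of all genes. Outside glia, Thy1 had 954 CPM in lymphocyte-like cells of the NeuroD1-vector library and 1055 CPM in those of the GFP-vector library, where it is a known T cell surface protein. Rab3a had 174 and 162 CPM in pericyte-like cells, and Nrgn 149 and 137 CPM in smooth muscle-like cells. In endothelial-like cells 0 of 10 measured members were higher and 2 lower in the NeuroD1-vector library, against 23.3% and 12.4% of all genes, and Thy1 had 1.16 CPM in the NeuroD1-vector library and 17.5 CPM in the GFP-vector library. Thy1 was thus lower in the NeuroD1-vector library in oligodendrocyte-like, endothelial-like and, as given next, microglia-like cells. It was also lower in pericyte-like cells (0.63 CPM in the NeuroD1-vector library and 39.4 CPM in the GFP-vector library) and smooth muscle-like cells (5.83 and 49.0 CPM). Macrophage-like (2.29 and 28.9 CPM) and choroid plexus epithelium-like cells (0.93 and 6.29 CPM) went the same way, each sum on at most 14 UMIs. Ependymal-like cells went the other way on 1 UMI, and fibroblast-like cells had 0 UMIs in both libraries. Excitatory neuron-like cells, in which Thy1 was highest in the GFP-vector library, were 0.0547% of the cells of the NeuroD1-vector library and 1.15% of those of the GFP-vector library, and the part of their free RNA was not tested.

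Microglia-like cells held the members at 138 CPM in the NeuroD1-vector library and 317 CPM in the GFP-vector library. Of 23 measured members 1 was higher and 17 lower in the NeuroD1-vector library, while 36% of all genes were higher and 17.6% lower, and the median log2 ratio was -1.39 over the members and 0.33 over all genes. Rab3c, a brain Rab3 isoform, had 1.14 CPM in the NeuroD1-vector library and 35.5 CPM in the GFP-vector library, and Thy1 3.79 and 40.6 CPM. Vamp2, with 40.6 and 45.1 CPM, and Rab3a, with a ratio of 1.14 (0.73 to 1.75), were within 1.5-fold. The libraries filled different microglia-like clusters. A cluster led by Cst7, a gene of plaque-associated microglia, held 8 cells of the NeuroD1-vector library and 2657 of the GFP-vector library, and the cluster led by the homeostatic gene Tmem119 held 561 and 749. A cluster mostly of 1 library may be that library and not a cell state.

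Within the GFP-vector library the Cst7-led cluster had a summed member level of 416 CPM and the Tmem119-led cluster 204 CPM. Of 19 measured members 12 were higher and 1 lower in the Cst7-led cluster, against 14.7% and 27% of all genes. Rab3c had 207 UMIs in 156 of 2657 cells, 54.7 CPM, in the Cst7-led cluster and 1 UMI, 1.28 CPM, in the 749 cells of the Tmem119-led cluster, a ratio of 42.6 (7.57 to 1691). Cplx2 had 52.3 and 7.70 CPM, a ratio of 6.79 (3.07 to 18.7), and Nrgn 41.2 and 10.3 CPM, a ratio of 4.01 (1.99 to 9.46). Vamp2 had 51.0 and 47.5 CPM. Per Snap25 UMI, the Cst7-led cluster had 2.92 Rab3c UMIs and 2.79 Cplx2 UMIs, while excitatory neuron-like cells of that library had 0.28 and 0.62. Camk2a stood at 0.68 in the cluster and 0.67 in the excitatory class. Immature neuron-like cells of that library had 8 Rab3c and 38 Cplx2 UMIs beside 2 of Snap25, and Cajal-Retzius neuron-like cells 3 and 15 beside 59. The part of neuron RNA in the cluster was not tested. The 8 cells of the NeuroD1-vector library in that cluster held 39 of the 72 Cplx2 UMIs of its microglia-like cells, in 3 cells. Slc17a7 stood at 0.49 UMIs per Snap25 UMI in the cluster and 1.09 in the excitatory class. In the Tmem119-led cluster, which both libraries filled, the members summed to 106 CPM in the NeuroD1-vector library and 204 CPM in the GFP-vector library. That ratio was 0.52 (0.395 to 0.681), so the lower sum was also seen within this shared cluster. There Vamp2 had 47.5 CPM in each library and Thy1 2.50 CPM in the NeuroD1-vector library and 28.2 CPM in the GFP-vector library.

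**Figure D5:**
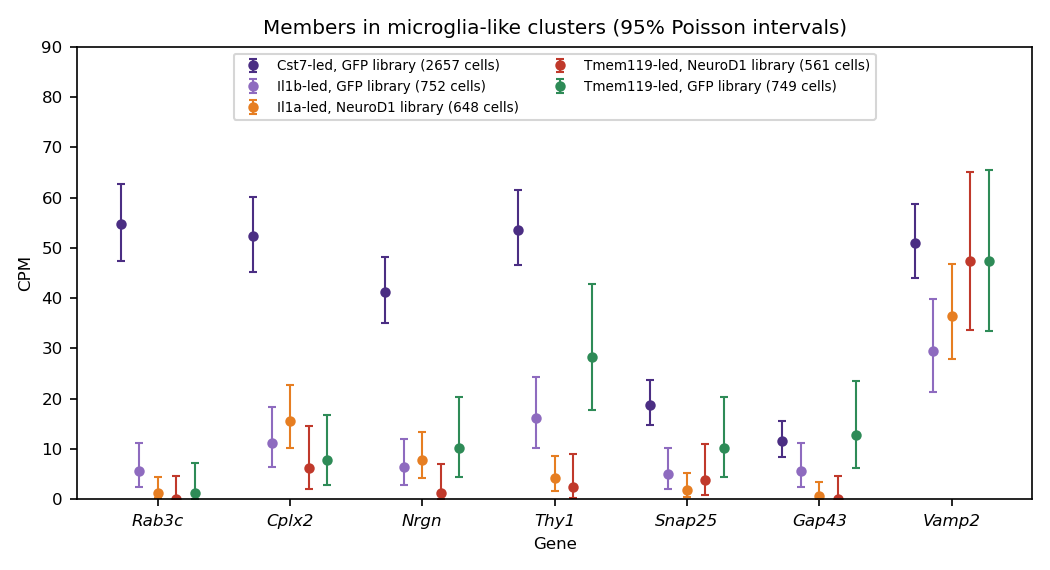
CPM of 7 members in microglia-like clusters, named by their leading gene and library, with exact 95% Poisson intervals. Rab3c, Cplx2 and Nrgn lie above 40 CPM in the Cst7-led cluster and below 16 CPM in the other 4 groups plotted, while Vamp2 intervals overlap among the Cst7-led and Tmem119-led clusters. Groups of 58 or fewer cells are not plotted, among them a Ccnb2-led one of the GFP-vector library with Rab3c at 28.9 CPM on 4 UMIs.

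Microglia-like cells of the GFP-vector library with a GFP UMI (309, against 3944 without) had a summed member level of 550.5 CPM, against 297 CPM, and 15 of 21 measured members were higher and 0 lower, where 15.1% and 18.4% of all genes were. Within the Cst7-led cluster 11 of 16 were higher and 0 lower, against 15.5% and 20.4% of all genes. Gap43 had 38.0 CPM in GFP-positive and 9.22 CPM in GFP-negative cells of that cluster, a ratio of 4.11 (1.93 to 8.21), and Cplx2 114 and 46.7 CPM, a ratio of 2.44 (1.65 to 3.52). Snap25 had 15.8 and 19.0 CPM there. The NeuroD1-vector library had 1 GFP-positive microglia-like cell, so the same split could not be made in it. In oligodendrocyte-like cells of the GFP-vector library 1 of 7 measured members was higher and 1 lower in GFP-positive cells, against 12% and 18.5% of all genes.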

How the data were processed

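Single-cell RNA was measured in 2 libraries, 1 per group. Per the labels' protocols, hippocampus was dissociated with papain and cells were captured on a SCOPE-chip, while the description field names another platform. The deposited matrices hold UMI counts per gene and barcode; the authors named FastQC, fastp, cutadapt, STAR, featureCounts and mm39 (versions and roles not given), per the submitters' processing notes. Strand use in counting is not stated, and 5 members, among them Syn1, Syn2 and Rab3a, overlap a protein-coding gene on the other strand in GENCODE mouse release 21. Barcodes start at 500 UMIs.

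A minimum of 200 genes and a limit of 20% mitochondrial UMIs took out 131 barcodes in the NeuroD1-vector and 104 in the GFP-vector library. Scrublet then took out doublets (3.65% and 4.78%). Clustering used 3000 variable genes, 30 components, 15 neighbours and Leiden at resolution 1 (Python 3.11.15, scanpy 1.11.5, leidenalg 0.10.2, numpy 2.4.6, scipy 1.17.1, pandas 2.3.3), without the members, 124 genes of 6 wider lists, sex-linked, immediate early, haemoglobin, ribosomal and mitochondrial genes, Neurod1 and the vector features. The 30 clusters were named "X-like" from marker lists, giving 15 classes. UMIs were summed per class and library. CPM has an exact Poisson interval, a CPM ratio an exact conditional binomial one, a share a Clopper-Pearson one, and a ratio of ratios a normal interval on the log scale. "Higher" and "lower" mean a ratio of at least 1.5 or its inverse where both sums together hold 20 or more UMIs, and log2 ratios add 0.5 UMI to each sum. All members could be named; from a wider list, the 2 highest and 2 lowest ratios with at least 50 UMIs, not all of which are reported here. Cells were compared without replicates, so no test was made. Intervals were tested on simulated data. Members and lists were chosen with earlier results of these data known. Alternatives are given at the end.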

Additional observations from a re-analysis of the deposited data

How the results depend on the processing

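No paired analysis was possible because each group was 1 library. The medians that changed sign under an alternative were within 1.5-fold either way in the main analysis. Choosing neurons by their markers in place of clusters left 5 excitatory cells in the GFP-vector library, 11 Cajal-Retzius cells in the NeuroD1-vector library and 6 in the GFP-vector library, and 10 immature cells in the NeuroD1-vector library and 4 in the GFP-vector library. Thinning to 500 UMIs gave median log2 ratios of the NeuroD1-vector over the GFP-vector library of -0.51 in immature neuron-like cells, whose main value was 0.06, 0.50 in oligodendrocyte-like cells, whose main value was -0.36, 1.22 in oligodendrocyte precursor-like cells and -2.11 in microglia-like cells. In the GFP-vector library the GFP split of astrocyte-like cells gave -0.35 within the Thrsp-led cluster, on 2 members, where the main value was 0.05. Without thinning, 64.2% of astrocyte-like cells in the NeuroD1-vector library and 42.7% in the GFP-vector library had a member UMI.

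Summed levels moved most with median-of-ratios scaling. In the NeuroD1-vector library that gave 9993 in excitatory, 6543 in Cajal-Retzius, 1957 in immature and 654 CPM in astrocyte-like cells, and in the GFP-vector library 29395, 6612, 1613 and 537 CPM. Leaving Ttr, haemoglobin, mitochondrial and ribosomal genes out of the total gave, for the NeuroD1-vector library, 10144 in Cajal-Retzius, 3178 in immature and 623 CPM in astrocyte-like cells, and 35439 in excitatory, 10647 in Cajal-Retzius and 543 CPM in astrocyte-like cells of the GFP-vector library. Thinned cells gave, for the NeuroD1-vector library, 20286 in excitatory, 3220.3 in immature and 565 CPM in astrocyte-like cells, and 28409 in excitatory, 3000 in immature and 544 CPM in astrocyte-like cells of the GFP-vector library. The mean over cells gave 20190.0 in excitatory and 3172 CPM in immature cells of the NeuroD1-vector library, and 28574 in excitatory and 538 CPM in astrocyte-like cells of the GFP-vector library. Keeping doublets gave 8532 CPM in Cajal-Retzius cells of the NeuroD1-vector library, keeping the list genes for clustering 3378 CPM in its immature cells, and a limit of 10% mitochondrial UMIs 32269.8 CPM in excitatory cells of the GFP-vector library. Among single members of the GFP split, cells with few neuron markers left all 33 values within their counting interval, the Thrsp-led cluster moved 2 of 23 and thinning moved 5 of 15. The choices of the Thrsp-led cluster, of cells with few neuron markers, of unthinned shares and of thinning for single members were made after seeing the data. The causes were not tested. Each group was 1 library, so no value has an error between animals, and the 7 excitatory cells of the NeuroD1-vector library limit every value of that class.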
